A study of Mus musculus with 5 samples.

Results

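The 40 genes described here carry the names of 7 solute carrier families, which mostly transport amino acids and peptides, and they were compared in tibialis anterior (TA) muscle of male mice at 8 weeks of age. They are all rows of the deposited table of 17015 genes whose name starts with Slc1a, Slc3a, Slc7a, Slc15a, Slc36a, Slc38a or Slc43a followed by a digit. Family Slc1a gave 5 rows, Slc3a 2, Slc7a 13, Slc15a 4, Slc36a 3, Slc38a 10 and Slc43a 3. In GENCODE M21, 48 protein-coding genes carry such names, and the other 8 were not analysed here. One member, Slc7a6os, is named for its place opposite Slc7a6 and is not itself a transporter, but the rule on names includes it.

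There were 3 libraries labelled Ctrl, here WT control, and 2 labelled Nrip1KO, which the study names skmNrip1-/-, and its descriptions give sedentary male mice for both. The study describes a larger skmNrip1-/- group for this comparison, and further libraries of that group were not analysed here. The skmNrip1-/- mice carry Nrip1 fl/fl and a Cre recombinase under the myogenin promoter, which is active in skeletal muscle cells, so the other cells of the muscle keep the gene. The controls are Cre-negative littermates of the same cross. Nrip1 encodes RIP140, a coregulator of nuclear receptors. Nrip1 itself stood at 4.64, 7.69 and 6.55 FPKM in WT control and at 25.3 and 22.5 FPKM in the other 2. Its log2 fold change was 1.94 (limma adjusted p = 0.0261), which goes against a label of knockout. The study places both the start and the stop codon in the floxed exon, and 1 value per gene cannot show whether that exon is missing. The study also assayed Nrip1 RNA and RIP140 protein in gastrocnemius of this mouse line, and those assays were not analysed here. Hence the libraries are called labelled skmNrip1-/- throughout, and each direction rests on those labels. FPKM count fragments per kilobase of transcript on a scale set for each library, so levels of different genes can be compared per length. The depth of the libraries is unknown. All 7 muscle markers, among them Acta1 and Ckm, were tested with 1 of 7 above 0 in log2 fold change and none called, and their summed level was 59070 to 77701 FPKM in WT control and 54437 to 56862 FPKM in the libraries labelled skmNrip1-/-. Expression was measured in whole muscle, where fewer cells of a type and less RNA per cell cannot be told apart.

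Amino acids cross membranes mostly with the help of carriers, and these families share that work with others. Slc1a members carry glutamate or small neutral amino acids, and Slc38a members carry glutamine, alanine and related amino acids with sodium. Most Slc7a members are either cationic amino acid transporters or light chains that reach the cell surface joined to a heavy chain of family Slc3a. Slc15a holds proton-coupled transporters of small peptides, Slc36a proton-coupled transporters of small amino acids, and Slc43a transporters of large neutral amino acids. Skeletal muscle is the main store of free glutamine in the body, and it exports glutamine and alanine.

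Fold changes are on the scale log2(FPKM + 0.1), fitted by limma, and understate changes where FPKM are low. Calls needed an adjusted p no higher than 0.05 together with a fold change of 1.2 or more. Of the 40 members, 26 had a mean of at least 0.5 FPKM and were tested. Slc38a10 and Slc15a5 rose in the libraries labelled skmNrip1-/-, and Slc38a4 fell. Thus 2 of 26 tested members were called higher, against 0.37% of all 12148 genes tested, and 1 of 26 was called lower, against 0.0823% of all genes. The members were chosen with earlier results of these data known, and Slc38a10 and Slc15a5 were named in that choice. Hence these counts do not test the members against all genes. The median log2 fold change of the 26 members was -0.15, with 8 above 0 and 18 below, beside a median of -0.00 over all genes tested. Among those above 0, Slc7a5 and Slc38a11 reached the FPKM minimum only through the libraries labelled skmNrip1-/-, so the filter favoured their side.

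The 250 bases before the RefSeq start of each of the 3 called members are shown here because these members have the changes that passed the test. The windows are on GRCm38.p6, 5′ to 3′ on the gene's strand, and capitals mark CG dinucleotides. Slc38a10 is at chr11:120151352-120151601 on the minus strand, Slc15a5 at chr6:138079917-138080166 on the minus strand, and Slc38a4, from the most upstream of its 3 listed starts, at chr15:97055957-97056206 on the minus strand.
Slc38a10: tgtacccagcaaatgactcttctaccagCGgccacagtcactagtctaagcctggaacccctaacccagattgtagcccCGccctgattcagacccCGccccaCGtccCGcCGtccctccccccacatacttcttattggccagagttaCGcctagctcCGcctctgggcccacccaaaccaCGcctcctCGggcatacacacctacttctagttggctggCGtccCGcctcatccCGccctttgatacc
Slc15a5: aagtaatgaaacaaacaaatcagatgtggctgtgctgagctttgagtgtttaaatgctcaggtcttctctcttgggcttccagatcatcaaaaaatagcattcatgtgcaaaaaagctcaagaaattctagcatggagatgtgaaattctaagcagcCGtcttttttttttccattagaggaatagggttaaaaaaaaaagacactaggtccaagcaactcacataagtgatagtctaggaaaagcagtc
Slc38a4: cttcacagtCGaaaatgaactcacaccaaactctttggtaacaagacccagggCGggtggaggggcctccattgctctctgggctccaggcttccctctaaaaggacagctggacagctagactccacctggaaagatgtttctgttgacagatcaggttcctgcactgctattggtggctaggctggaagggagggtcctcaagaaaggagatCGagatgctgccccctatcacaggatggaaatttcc
The windows differ in composition. The window of Slc38a10 was 60.4% G and C with 13 CG dinucleotides, that of Slc15a5 was 37.2% with 1, and that of Slc38a4 was 52.8% with 3. Over all 32851 RefSeq windows of this length, the median was 52.4% with 6 CG dinucleotides. AGGTCA, the core motif that many nuclear receptors bind, was searched on both strands and was in none of these 3 windows, nor in those of the other 2 starts of Slc38a4. It was in a window of 4 of the 30 members with a RefSeq window (Slc15a4, Slc36a1, Slc7a7 and Slc7a9), and in 14.0% of all windows. TCAAGGTCA, which contains that motif, and a pair of AGGTCA 1 base apart in the same direction were in no member's window, and in 0.387% and 0.0335% of all windows. TGATGNAA, as in elements bound by ATF4, was in windows of Slc7a11 and Slc7a7, and in 3.45% of all windows. The 30 members have 40 windows and each member was counted once, whereas the percentages count single windows, so the 2 measures are not alike.

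Slc38a10 (ENSMUSG00000061306, chromosome 11, 120103960 to 120151346 on GRCm38) had the second largest rise of the tested members and the smallest p. It belongs to the sodium-coupled neutral amino acid transporters. Its level was 28.04, 28.8 and 37.4 FPKM in replicates 1, 2 and 3 of WT control, against 106.9 and 114.7 FPKM in the pair of libraries labelled skmNrip1-/-. Both of the latter lay far above every WT control library, and the groups did not overlap. The mean was 31.4 ± 5.21 FPKM (SD, n = 3) against 110.8 ± 5.49 FPKM (SD, n = 2), a ratio of 3.53. The log2 fold change was 1.83 (with a standard error, SE, of 0.15, 95% interval 1.47 to 2.18, limma adjusted p = 0.00671). Among the 40 members, Slc38a10 ranked from 2 to 4 by FPKM in the WT control libraries and ranked 1 in both libraries labelled skmNrip1-/-. The call held without each WT control library in turn, but it was lost without either library labelled skmNrip1-/- (adjusted p = 0.0690 without replicate 1 and adjusted p = 0.0812 without replicate 2 from limma), where the lone library was taken to vary like the controls.

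The genes around Slc38a10 did not pass the test. Within 200 kb on either side, the table holds 8 other genes, all tested, with log2 fold changes from -0.28 to 0.09 and none called. The nearest, Ndufaf8, lies 3.255 kb away and had a log2 fold change of -0.28 (limma adjusted p = 0.616). The annotation gives 16 transcripts of Slc38a10, 5 of them protein-coding, with lengths from 328 to 4578 bases, and the table cannot say which of them carried the rise. An unmeasured transcript on the opposite strand, Gm11769, shares 367 exonic bases with Slc38a10, or 5.72% of its exonic bases, and reads from both cannot be told apart because the use of strand in counting is not stated.

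Slc15a5 (ENSMUSG00000044378, chromosome 6, 137983586 to 138079916) had the largest rise of the tested members. It is placed in the peptide transporter family by its sequence. Its level was 6.03, 8.57 and 4.25 FPKM in replicates 1, 2 and 3 of WT control, against 26.8 and 28.6 FPKM in the pair of libraries labelled skmNrip1-/-. The groups were well apart, although WT control libraries differed by 0.99 between the lowest and the highest on the log2 scale. The mean rose from 6.28 ± 2.17 FPKM (SD, n = 3) to 27.7 ± 1.30 FPKM (SD, n = 2), a ratio of 4.41. The log2 fold change was 2.18 (SE 0.27, 95% interval 1.53 to 2.82, limma adjusted p = 0.0378). It ranked from 9 to 14 among the members in WT control and 4 in both libraries labelled skmNrip1-/-. The call was lost without WT control replicate 1 or 3 or either library labelled skmNrip1-/- (adjusted p-values of 0.121, 0.0629, 0.220 and 0.228 from limma), and the log2 fold change stayed between 1.93 and 2.43. It was also lost with no minimum on FPKM and with eBayes without trend (limma adjusted p-values of 0.0557 and 0.0943). Of the other 2 genes within 200 kb, Mgst1, which encodes a microsomal glutathione transferase and lies 60.4 kb away, had a log2 fold change of 0.97 (limma adjusted p = 0.0959) with libraries that did not overlap. Dera, on the other side, had a log2 fold change of -0.13 (limma adjusted p = 0.737).

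Slc38a4 (ENSMUSG00000022464, chromosome 15, 96994820 to 97055956) was the single member called lower. It encodes a system A amino acid transporter and is an imprinted gene in mice. Its level was 19.3, 18.6 and 17.9 FPKM in replicates 1, 2 and 3 of WT control, against 11.0 and 9.75 FPKM in the pair of libraries labelled skmNrip1-/-. The WT control libraries lay close together, and both libraries labelled skmNrip1-/- lay below all of them. The mean was 18.6 ± 0.701 FPKM (SD, n = 3) against 10.4 ± 0.860 FPKM (SD, n = 2), a ratio of 0.556. The log2 fold change was -0.84 (SE 0.11, 95% interval -1.10 to -0.58, limma adjusted p = 0.0403). The call was lost when any 1 of the 5 libraries was left out (adjusted p-values from 0.0773 to 0.363 from limma), with log2 fold changes from -0.93 to -0.76. It was also lost with no minimum on FPKM and with eBayes without trend (limma adjusted p-values of 0.05004 and 0.103).

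Slc38a4 lies on the minus strand next to other members of its family, with no other gene of the table between them. Slc38a2, which encodes the amino acid-regulated system A transporter SNAT2, starts 295 kb away, and Slc38a1 lies 44.5 kb beyond it. Slc38a2 was at 17.9, 25.6 and 18.5 FPKM in WT control, and at 25.4 and 25.5 FPKM in the libraries labelled skmNrip1-/-. WT control replicate 2 was as high as these, so the groups overlapped, and the log2 fold change was 0.32 (95% interval -0.09 to 0.73, limma adjusted p = 0.542). Slc38a1, which encodes SNAT1, was under the FPKM minimum, between 0.0802 and 0.237 FPKM in all libraries. On the far side of Slc38a4, Amigo2 and Pced1b had log2 fold changes of -0.06 and 0.12 (adjusted p-values of 0.943 and 0.895 from limma).

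**Figure D1:**
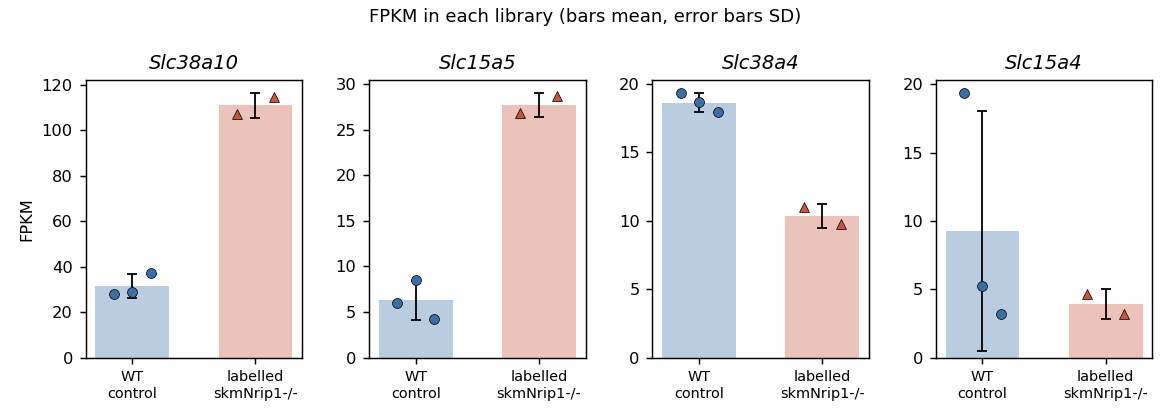
FPKM of the 3 called members and of Slc15a4 in each library, on linear axes that start at 0, with circles for WT control, triangles for libraries labelled skmNrip1-/-, bars for means and error bars for SD. Slc38a10 and Slc15a5 lie higher and Slc38a4 lower in both libraries labelled skmNrip1-/-, and 1 WT control library of Slc15a4 stands at 19.4 FPKM.

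The other members of Slc38a were not called. Slc38a3, which encodes the glutamine transporter SNAT3, had the highest FPKM of all members in each WT control library, at 60.8, 59.7 and 57.5 FPKM, and was at 46.2 and 53.0 FPKM in the libraries labelled skmNrip1-/-. Both of the latter were below every WT control library, by a small step, and the log2 fold change was -0.26 (SE 0.11, limma adjusted p = 0.406). Slc38a9, a lysosomal arginine sensor of the mTORC1 pathway, was at 1.83, 1.99 and 1.76 FPKM in WT control, and at 1.72 and 1.77 FPKM in the libraries labelled skmNrip1-/-. Its libraries overlapped, and its log2 fold change was -0.08 (95% interval -0.45 to 0.28). Slc38a6 had a level of 24.0 to 33.1 FPKM over all 5 libraries, and Slc38a7, which encodes a lysosomal glutamine transporter, had one of 2.50 to 3.87 FPKM, each with overlapping groups. Slc38a11 passed the FPKM minimum only through its level in the libraries labelled skmNrip1-/-, and was spread over 0.135 to 0.743 FPKM in WT control, and over 0.493 to 1.26 FPKM in the libraries labelled skmNrip1-/-. Slc38a5, which encodes SNAT5, was under the minimum, between 0.0134 and 0.0972 FPKM. Over the 8 tested Slc38a members, log2 fold changes had a median of 0.03, which turned to -0.26 after rescaling to TPM and to -0.08 with a minimum of 1 FPKM.

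In family Slc15a, 3 of 4 members were tested. Slc15a4, which encodes an endolysosomal histidine and peptide transporter, was at 19.4, 5.21 and 3.23 FPKM in replicates 1, 2 and 3 of WT control, against 4.69 and 3.17 FPKM in the libraries labelled skmNrip1-/-. WT control replicate 1 stood apart from the other 4 libraries, and without it the log2 fold change moved from -0.82 to -0.09 (adjusted p = 0.713 and 0.943 from limma). Slc15a2, which encodes the peptide transporter PEPT2, was at 4.03, 1.58 and 4.92 FPKM in WT control, and at 4.70 and 0.792 FPKM in the libraries labelled skmNrip1-/-. The lowest value in each group was that of replicate 2, and the 95% interval of the log2 fold change ran from -2.46 to 1.14. Slc15a3 was under the FPKM minimum, between 0.135 and 0.216 FPKM, and 28.1% of its exonic bases are shared with Tmem132a on the opposite strand. The median of the 3 tested members, -0.66, was that of Slc15a2, and so says nothing of Slc15a5.

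Among the heavy chains, Slc3a2, which encodes the heavy chain 4F2hc (CD98), was at 17.0, 14.4 and 14.3 FPKM in WT control, and at 13.6 and 13.5 FPKM in the libraries labelled skmNrip1-/-. Both of the latter were slightly lower, and the log2 fold change was -0.17 (95% interval -0.45 to 0.12, limma adjusted p = 0.652). Its light chain partners Slc7a5, Slc7a6, Slc7a7, Slc7a8, Slc7a10 and Slc7a11 together summed to 9.73 to 11.0 FPKM in WT control and to 8.76 to 8.84 FPKM in the libraries labelled skmNrip1-/-. Per length, Slc3a2 was thus 1.47 to 1.55 times the light chain sum in WT control and 1.52 to 1.55 times in the libraries labelled skmNrip1-/-, ranges that overlapped. Slc3a1, the heavy chain of the cystine transporter, was between 0.341 and 0.775 FPKM in all libraries, near the minimum, and 26.5% of its exonic bases are shared with Prepl on the opposite strand.

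Fold changes of the Slc7a light chains had both signs, and none was called. Slc7a5, which encodes the large neutral amino acid transporter LAT1, was at 0.410, 0.470 and 0.615 FPKM in WT control, and at 1.06 and 0.682 FPKM in the libraries labelled skmNrip1-/-. The groups did not overlap but stood close together, and the log2 fold change was 0.68 (SE 0.30, 95% interval -0.04 to 1.41, limma adjusted p = 0.452). Its mean in WT control alone, 0.498 FPKM, was just under the minimum of 0.5, so it was tested through the other group. Slc7a8, which encodes LAT2, was at 4.004, 2.89 and 4.14 FPKM in WT control, and at 2.78 and 2.19 FPKM in the libraries labelled skmNrip1-/-. The highest of the latter was just below the lowest WT control library, and the log2 fold change was -0.54 (SE 0.20, limma adjusted p = 0.374). Slc7a6 ranged from 3.76 to 4.96 FPKM and Slc7a7 from 0.760 to 1.38 FPKM over all libraries, with groups that overlapped.

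Slc7a2, a cationic amino acid transporter and the Slc7a member with the highest mean, was at 8.81, 14.3 and 11.1 FPKM in WT control, and at 9.46 and 13.3 FPKM in the libraries labelled skmNrip1-/-. Its groups overlapped throughout, and the log2 fold change was 0.01 (95% interval -0.56 to 0.57). Slc7a6os was at 8.84, 6.73 and 7.51 FPKM in WT control, and at 5.88 and 5.95 FPKM in the libraries labelled skmNrip1-/-. Both of the latter lay below all WT control libraries, and the log2 fold change was -0.36 (SE 0.14, limma adjusted p = 0.390). It ends 2.01 kb from Slc7a6 without sharing exonic bases with it. The 7 Slc7a members under the minimum were Slc7a1, Slc7a3, Slc7a9, Slc7a10, Slc7a11, Slc7a12 and Slc7a14, and their highest value in a library was 0.543 FPKM, for Slc7a12. Slc7a3 is listed at 0 in WT control replicates 1 and 2, and was at 0.0168 FPKM in replicate 3 and at 0.0778 and 0.0428 FPKM in the libraries labelled skmNrip1-/-.

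In family Slc1a, Slc1a5, which encodes the neutral amino acid exchanger ASCT2, was at 8.56, 7.06 and 8.69 FPKM in WT control, and at 6.24 and 7.01 FPKM in the libraries labelled skmNrip1-/-. The gap between WT control replicate 2 and the nearest of these was small, and the log2 fold change was -0.28 (95% interval -0.61 to 0.05, limma adjusted p = 0.491). Slc1a1, which encodes the glutamate transporter EAAC1, ranged from 1.35 to 2.02 FPKM in the libraries labelled skmNrip1-/-, around the WT control range of 1.437 to 1.80 FPKM. Its log2 fold change was 0.03 (95% interval -0.49 to 0.55), and 31.9% of its exonic bases are shared with 4430402I18Rik on the opposite strand. Slc1a2, Slc1a3 and Slc1a4 were under the minimum, and their values lay between 0.0804 and 0.391 FPKM.

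In family Slc43a, Slc43a3, which encodes a transporter of purine nucleobases rather than amino acids, was at 30.4, 26.6 and 28.03 FPKM in WT control, and at 22.9 and 20.9 FPKM in the libraries labelled skmNrip1-/-. The groups did not overlap, and the log2 fold change was -0.37 (SE 0.11, limma adjusted p = 0.282). The summed level of 7 endothelial markers was 114 to 128 FPKM in WT control and 107 to 111 FPKM in the libraries labelled skmNrip1-/-, with 2 of the 7 above 0 in log2 fold change, none called and none listed at 0 in all libraries, and their part in the values of Slc43a3 was not tested. Slc43a1, which encodes LAT3, was between 4.76 and 5.91 FPKM in WT control and at 5.28 and 4.99 FPKM in the libraries labelled skmNrip1-/-. The groups overlapped, at a log2 fold change of -0.00 (95% interval -0.34 to 0.33). Slc43a2, which encodes LAT4, was spread from 3.50 to 7.57 FPKM in WT control, around both libraries labelled skmNrip1-/-.

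In family Slc36a, Slc36a1, which encodes the lysosomal transporter PAT1, was at 1.54, 1.55 and 1.49 FPKM in WT control, and at 1.33 FPKM in both libraries labelled skmNrip1-/-. Both of the latter were lower by a small step, and the log2 fold change was -0.19 (95% interval -0.57 to 0.20, limma adjusted p = 0.724). Slc36a4 was at 0.565 to 0.864 FPKM in WT control and at 0.705 and 0.593 FPKM in the libraries labelled skmNrip1-/-, and Slc36a2 was under the minimum, between 0.205 and 0.391 FPKM.

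**Figure D2:**
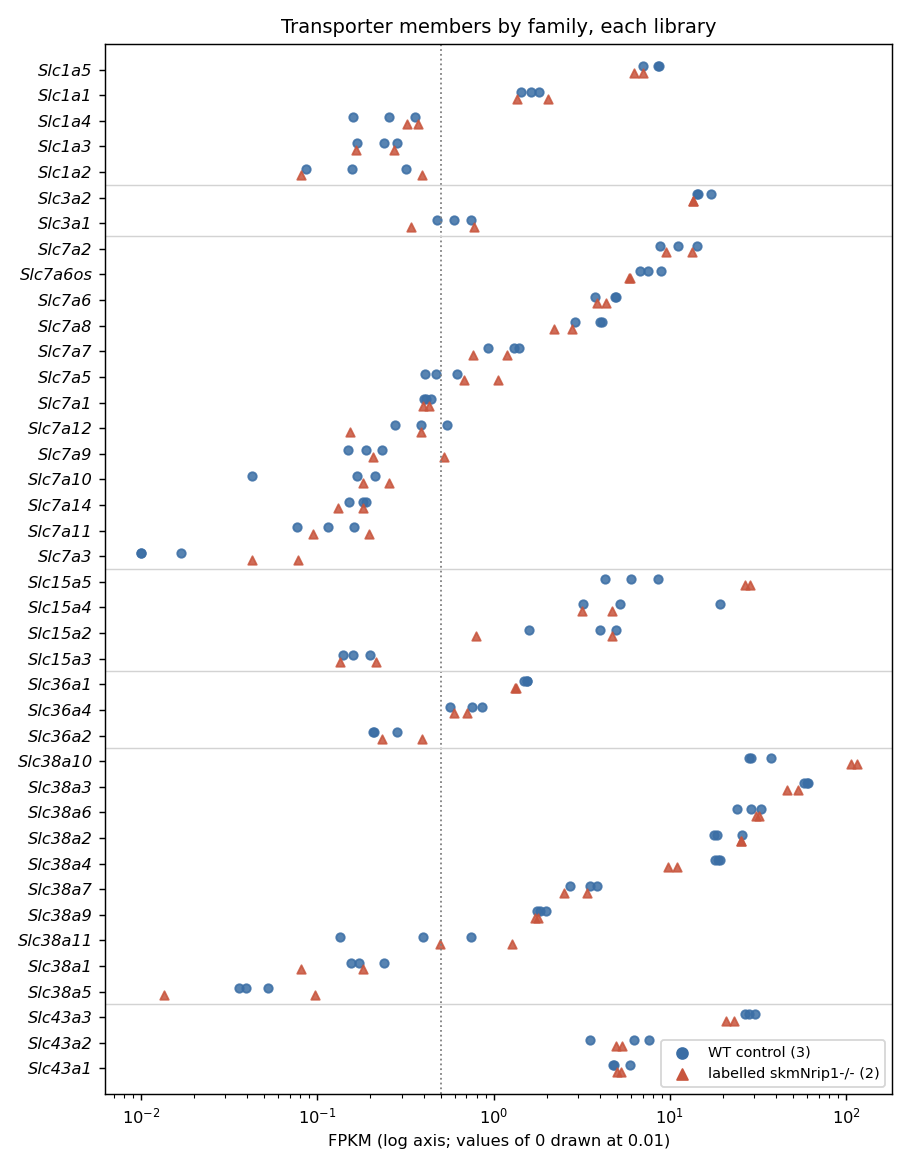
FPKM of all 40 members in each library on a log axis, grouped by family, with circles for the 3 WT control libraries and triangles for the 2 labelled skmNrip1-/-, and a dotted line at the minimum mean of 0.5 FPKM. Levels span from values listed at 0 for Slc7a3 to 114.7 FPKM for Slc38a10.

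Before adjustment, 2 of 26 tested members had a p of 0.05 or less and were higher (6.57% of all genes tested), and 5 of 26 had one and were lower (5.33% of all genes). The 5 lower ones were Slc38a4, Slc43a3, Slc7a8, Slc7a6os and Slc38a3. Both libraries labelled skmNrip1-/- lay above every WT control library for 3 of 26 members (15.8% of all genes), and below every WT control library for 8 of 26 (14.4% of all genes). Apart from the 2 called members, the former was Slc7a5, and the 8 were the 5 just named with Slc1a5, Slc3a2 and Slc36a1. Slc7a5 reached the FPKM minimum only through the libraries labelled skmNrip1-/-, so the filter favoured its place above. The remaining 15 tested members overlapped, as did 8480 of all 12148 genes tested. Of the 14 untested members, 13 overlapped and the exception was Slc7a3, and no share over all untested genes is given.

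**Figure D3:**
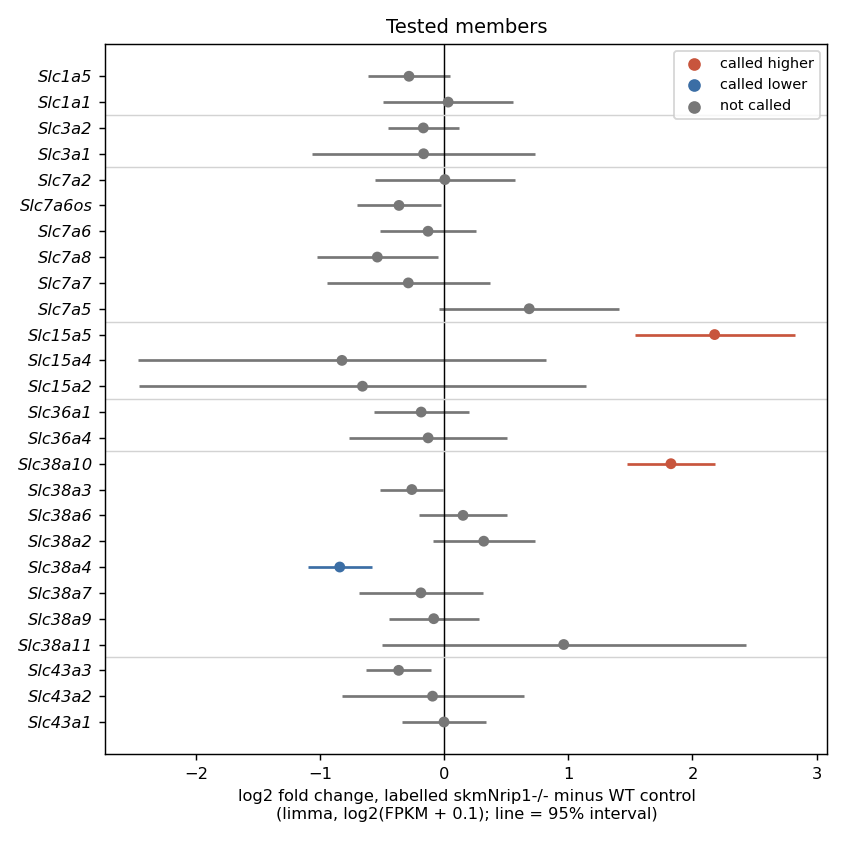
Log2 fold change of the 26 tested members, libraries labelled skmNrip1-/- minus WT control, with 95% intervals from limma, grouped by family and ordered by mean FPKM. The intervals of Slc38a10 and Slc15a5 lie well above 0 and that of Slc38a4 well below, and the widest are those of Slc15a2, Slc15a4 and Slc38a11.

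The share of single members in the summed level differed between the groups. The FPKM of the 40 members summed to 289, 286 and 272 in WT control, and to 346 and 359.9 in the libraries labelled skmNrip1-/-. The FPKM of all genes also summed to more in the latter, and as a share of that total the members overlapped between the groups, at 0.0253% to 0.0280% in WT control and 0.0269% to 0.0280% in the libraries labelled skmNrip1-/-. Slc38a10 made up 9.69%, 10.1% and 13.8% of the sum of the 40 members in WT control, and 30.9% and 31.9% in the libraries labelled skmNrip1-/-. Slc15a5 made up 1.57% to 2.08% in 2 WT control libraries and somewhat more in replicate 2, and 7.73% to 7.95% in the others, and Slc38a4 6.52% to 6.67% and 2.71% to 3.17%. Without these 3 members the sum was 236, 229.6 and 212 in WT control, and 202 and 207 in the libraries labelled skmNrip1-/-, both below every WT control library. The 3 called members were set apart by their change in these data, so the higher total describes them and is no separate result. For the same reason, the lower sum without them is no separate result. In WT control replicate 1 that sum also holds the Slc15a4 value of 19.4 FPKM, which stood apart from the other libraries.

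**Figure D4:**
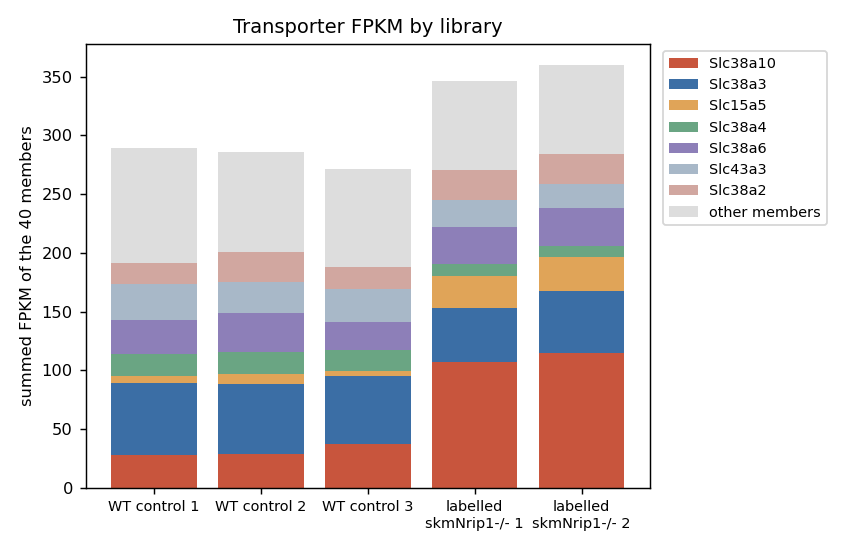
Summed FPKM of the 40 members in each of the 5 libraries, stacked by member, with the axis starting at 0. Slc38a10 takes 30.9% and 31.9% of the sum in the libraries labelled skmNrip1-/-, and 9.69% to 13.8% in WT control, where Slc38a3 is the largest member.

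In WT control TA, the order of the members by level was partly unresolved. Slc38a3 stood above all others in each library. Slc38a10 (28.04 to 37.4 FPKM), Slc38a6 (24.0 to 33.1 FPKM) and Slc43a3 (26.6 to 30.4 FPKM) overlapped each other. Slc38a2 (17.9 to 25.6 FPKM) overlapped Slc38a6 and Slc38a4 (17.9 to 19.3 FPKM). Slc3a2 lay below these, and its lowest library, at 14.3 FPKM, was about level with the highest of Slc7a2. In the libraries labelled skmNrip1-/-, Slc38a10 (106.9 to 114.7 FPKM) stood above Slc38a3 (46.2 to 53.0 FPKM), and Slc15a5 lay between Slc38a6 and Slc38a2.

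Genes that work with these transporters were counted in the same comparison, and none was called. Of 16 other amino acid transporters in the table, 6 were tested, and of these Ctns, the lysosomal cystine exporter, and Slc6a9, a glycine transporter, passed a p of 0.05 before adjustment, in opposite directions. At that p, 6.57% of all genes tested were higher and 5.33% were lower. Ctns had a log2 fold change of 0.32 (limma adjusted p = 0.417), and Slc6a9 had one of -0.69 (limma adjusted p = 0.326). For 29 genes of amino acid sensing by mTORC1, the median log2 fold change was -0.11, with 10 above 0, and the changes ran from -0.32 for Wdr24 to 0.22 for Lamtor3. Wdr24, a subunit of a complex upstream of mTORC1, was the single gene of that list that passed a p of 0.05 before adjustment (limma adjusted p = 0.349). It was lower, as were 5.33% of all genes tested at that p, and no gene of the list was higher (6.57% of all genes tested).

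Of 20 tested genes of the list of ATF4, a transcription factor that responds to lack of amino acids, and its targets, 3 were lower (5.33% of all genes tested) and none was higher (6.57% of all genes tested) at a p of 0.05 or less before adjustment. These were Cebpb, Chac1 and Ddit4, and several of the targets also respond to other stresses. Cebpb was at 37.8, 33.3 and 47.1 FPKM in WT control, and at 24.1 and 20.3 FPKM in the libraries labelled skmNrip1-/-, a log2 fold change of -0.81 (SE 0.17, limma adjusted p = 0.144). Phgdh, of serine synthesis, had the largest rise of the list, 0.53 (limma adjusted p = 0.633), and the median of the list was -0.01.

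Among 13 enzymes of glutamate, glutamine, alanine and aspartate metabolism, the median log2 fold change was 0.15, with 10 above 0, and 5 higher (6.57% of all genes tested) and 2 lower genes (5.33% of all genes tested) passed a p of 0.05 before adjustment. Gpt2, a mitochondrial alanine aminotransferase, was at 108, 93.5 and 100.8 FPKM in WT control, and at 60.8 and 57.1 FPKM in the libraries labelled skmNrip1-/-. The groups were well apart, and the log2 fold change of -0.77 (SE 0.11) missed the threshold (limma adjusted p = 0.0513). Glul, glutamine synthetase, was the other lower gene, with a log2 fold change of -0.33 (limma adjusted p = 0.396). Aspa, which splits N-acetylaspartate, had the largest rise, 0.88 (limma adjusted p = 0.0901), and the others were Gpt, Glud1, Got1 and Got2, with log2 fold changes from 0.37 to 0.58. Rescaling to TPM moved the median of all genes to -0.29, and the list medians given here are on the deposited scale.

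Markers of the other cells in the muscle were also compared, and none was called. Erythroid markers summed to 511 to 764 FPKM in WT control and to 827 to 996 FPKM in the libraries labelled skmNrip1-/-, with 5 of 5 above 0 in log2 fold change and none listed at 0. Slow muscle markers summed to 11.2 to 19.0 FPKM and to 40.7 to 54.6 FPKM, and of these Myl2 alone was at 1.85 to 9.68 FPKM and at 33.6 to 42.1 FPKM. The other 3 slow muscle markers, Tnni1, Tnnt1 and Myh7, overlapped between the groups, with log2 fold changes of -0.20, 0.00 and 0.35. At a p of 0.05 or less before adjustment, 3 of the 5 erythroid markers were higher (6.57% of all genes tested) and 0 were lower (5.33%). Among the markers of the other lists, only Myl2 reached that p. The sums of the adipocyte, macrophage, fibroblast, Schwann cell, satellite cell, and smooth muscle and pericyte markers overlapped between the groups. The part of these cells in the changes of Slc38a10, Slc15a5 and Slc38a4 was not tested.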

How the data were processed

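RNA was sequenced from TA muscle, with libraries made by the NEBNext Ultra RNA Library Prep Kit. Per the submitters' processing notes and the methods, the authors quantified reads with Salmon 1.10.2 on mm10, summarized transcripts to genes with tximport, and deposited FPKM per gene and library. How the FPKM were computed, and from which annotation, is not stated in the sources used here. Over genes detected in every library, the median ratio to the geometric mean of the libraries was 1.00 in each library. The FPKM sums nevertheless differed, so the deposited values were already scaled to equal median ratios and not to equal sums. The authors' DESeq2 1.44.0 log2 fold changes and adjusted p-values are also in the table and were not used. Depth is unknown, so no counting intervals are given. Libraries were grouped by their labels, and p-values measure only the spread between these 5 libraries. Same-numbered libraries of the 2 groups differ in genotype and so are different mice.

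Genes whose mean reached 0.5 FPKM were compared with limma 3.58.1 (lmFit, eBayes with trend) in R 4.3.3 on log2(FPKM + 0.1), 2-sided, in 1 fit of all 5 libraries with no covariates. Adjustment was by Benjamini-Hochberg over 12148 genes. The fit was tested on simulated data. The alternatives were pseudocounts of 1 and 0.01, no minimum or a minimum of 1 FPKM, rescaling to TPM or by median ratios, robust eBayes or eBayes without trend, a replicate block, leaving out each library, no fold threshold, and an adjusted p of 0.01. Positions come from GENCODE M21 (GRCm38, the build of mm10), where all 40 member IDs have the same name. Upstream windows come from RefSeq on GRCm38.p6, and 30 members had one. Python 3.11.15, pandas 2.3.3, numpy 2.4.6 and matplotlib 3.10.9 were used.

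The members and gene lists were chosen with earlier results of these data known. Members described with full values were the called ones, in each family the one with the highest mean, the largest rise and the largest fall, the 10 with the smallest p, and 6 chosen by name. The other members named, and the genes beside the called members, were chosen after their values were seen. An alternative median of family Slc7a, without Slc7a6os, was added after seeing the data.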

Additional observations from a re-analysis of the deposited data

How the results depend on the processing

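The directions of Slc38a10, Slc15a5 and Slc38a4 held under all 14 alternatives in which each was fitted, and their calls held under 12, 8 and 6 of these. Their log2 fold changes ran from 1.53 to 1.96, from 1.88 to 2.43 and from -1.14 to -0.76. Rescaling by median ratios, 1 of the 14, could change almost nothing, because the median ratio was already equal in all libraries. Of the members, 1 was called higher and 0 lower with no minimum on FPKM, with eBayes without trend and at an adjusted p of 0.01 or less. Leaving out 1 library gave 0 to 2 members called higher and 0 lower, and 6 to 51 genes called higher and 2 to 15 lower among all genes. With the replicate block, which paired 2 of the replicate numbers, 2 members were called higher and 0 lower (limma adjusted p = 0.197 for Slc38a4), and 18 genes were called higher and 4 lower among all genes. Deviations of same-numbered libraries correlated at 0.06 and 0.10 across genes. Among all 12148 genes tested, TPM gave 29 higher and 59 lower, eBayes without trend 22 and 3, and an adjusted p of 0.01 or less 14 and 3. With no minimum on FPKM, 39 were called higher and 7 lower among 17015 genes.

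Before adjustment, 4 members passed a p of 0.05 and were higher with no minimum on FPKM, and 9 were lower after rescaling to TPM, 3 with eBayes without trend, and 1 to 5 without each library in turn. Shares of all genes at that p are not given for these settings, so the counts describe no difference of the members from all genes. Rescaling to TPM moved the median of all genes to -0.29 and that of the members to -0.42. It moved those of Slc1a, Slc3a, Slc7a, Slc36a, Slc38a and Slc43a to -0.41, -0.44, -0.49, -0.42, -0.26 and -0.39. With no minimum, the medians of the members and of Slc7a were -0.069 and -0.013, and with a minimum of 1 FPKM that of Slc38a was -0.085. Leaving out 1 library gave medians of -0.17 to -0.059 for the members, -0.42 to 0.083 for Slc3a, -0.32 to -0.024 for Slc7a, -1.10 to 0.56 for Slc15a and -0.32 to -0.043 for Slc43a. The sign changed in members near 0. TPM divides each library by its FPKM sum, which was higher in both libraries labelled skmNrip1-/-, and so moves log2 fold changes down in general. Under TPM, Slc1a1 and Slc7a2 were at -0.25 and -0.29. Leaving out 1 library gave -0.24 to 0.30 for Slc1a1, -0.66 to 0.33 for Slc3a1, -0.056 to 0.097 for Slc43a1 and -0.24 to 0.25 for Slc7a2. The cause of the changes on leaving out 1 library was not tested.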

Other observations

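Some members of 1 family lie near each other on the mouse genome. Slc43a1 and Slc43a3 lie 73.0 kb apart on chromosome 2 with 1 measured gene between them, and their log2 fold changes were -0.00 and -0.37. Slc7a7 and Slc7a8 lie 304 kb apart on chromosome 14 with 12 measured genes between them, and their log2 fold changes were -0.29 and -0.54. Slc36a2 and Slc36a1 lie 19.3 kb apart on chromosome 11 on opposite strands, and the first of these was under the FPKM minimum. Differences within a pair were not tested.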
